A study of Mus musculus with 2 samples.

Results

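Il5, Il13, Il1rl1, Gata3 and Tslp are genes of the type 2 immune pathway, and their RNA was followed in single cells of mouse skin with and without Chrna5, which encodes the alpha-5 subunit of the nicotinic acetylcholine receptor. These 5 genes were chosen by name among the 31053 genes counted, and their cells by clustering that used none of the 5. The lymphocyte genes Il5, Il13, Il1rl1 and Gata3 were read mainly in lymphoid-like cells, and Tslp in keratinocyte-like clusters. The groups were Chrna5-/- mice and wild-type (WT) mice, with 1 single-cell library of dorsal skin each. Mice of both groups were female and received vaseline, a bland ointment, with skin taken on day 7. The protocols give an age of 6 to 8 weeks and a backcross to C57BL/6N over more than 10 generations, while the strain label reads C57BL/6 and the extraction protocol C57BL/6J. The extraction protocol also speaks of imiquimod, a drug that inflames skin, although both sample labels say vaseline. Skin was digested with collagenase and sorted for cells that exclude the dye SytoxBlue, so shares of cells are shares of sorted live cells. The number of mice behind a library and the deleted part of Chrna5 were not found in the labels. With 1 library per genotype no difference below has a replicate check, and genotype cannot be told apart from any other difference between the libraries.

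Type 2 immunity often begins at an epithelium, where keratinocytes release the alarmins TSLP and IL-33. Il1rl1 encodes ST2, the receptor for IL-33, and Gata3 encodes the transcription factor that type 2 helper T cells and group 2 innate lymphoid cells share. Both kinds of cell secrete IL-5, a growth factor of eosinophils, and IL-13, which acts on epithelium, fibroblasts and nerves. The axis is known in skin for its part in atopic dermatitis. Gata3 is also made by keratinocytes, where it takes part in differentiation, and ST2 is also carried by regulatory T cells and mast cells.

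The libraries held 9696 barcodes with 125458721 unique molecular identifiers (UMIs, counts of captured RNA molecules) for Chrna5-/- and 10741 barcodes with 139673385 UMIs for WT. After filtering, 8869 Chrna5-/- and 9673 WT cells were kept, with medians of 12316 and 12552 UMIs, and 34 barcodes occurred in both libraries. Chrna5 itself was too scarce to check the labels, with 2 UMIs in Chrna5-/- cells and 11 in WT cells. The kept cells included 666 Chrna5-/- and 755 WT lymphoid-like cells, with medians of 2746 and 2652 UMIs, and 7060 Chrna5-/- and 7594 WT keratinocyte-like cells in 13 clusters, with medians of 14201.5 and 14435.5 UMIs. Immediate early and heat shock genes, which tissue digestion can induce, took 1.52% of UMIs in Chrna5-/- lymphoid-like cells and 1.16% in WT ones, and their part in the results was not tested. Levels are CPM, the UMIs of a gene summed over a pool of cells and scaled to a total of 1000000 for that pool. Each ratio is the CPM in Chrna5-/- cells over that in WT cells, with an exact 95% interval that covers counting error only. A gene is called higher or lower where the ratio is at least 1.5 either way, the interval leaves out 1, and the 2 libraries hold at least 20 UMIs together.

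Il5 and Il13 lie in the type 2 cytokine locus. In GRCm38 (mm10), Il5 spans chr11:53720794-53725106 on the plus strand and Il13 spans chr11:53631324-53634702 on the minus strand, with Rad50 between them. Il1rl1 spans chr1:40429570-40465415 on the plus strand, and Il18r1 starts 137 bases after its end on the same strand. Gata3 spans chr2:9857078-9890034 on the minus strand. The promoters of Il5, Il13 and Il1rl1 are shown because these 3 genes, with Gata3, were highest in the same lymphoid subcluster of the Chrna5-/- library. Each is the 250 bases before an annotated start (RefSeq, GRCm38.p6), 5′ to 3′ on the gene's strand, with GATA motifs on either strand in capitals. The motifs searched were AGATAA together with TGATAA as well as AGATAG together with TGATAG.
Il5, chr11:53720544-53720793, plus strand: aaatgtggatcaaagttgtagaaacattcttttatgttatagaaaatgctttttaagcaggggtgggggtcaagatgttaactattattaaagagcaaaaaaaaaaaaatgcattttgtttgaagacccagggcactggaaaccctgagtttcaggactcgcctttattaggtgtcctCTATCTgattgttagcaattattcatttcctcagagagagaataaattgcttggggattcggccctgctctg
Il13, chr11:53634703-53634952, minus strand: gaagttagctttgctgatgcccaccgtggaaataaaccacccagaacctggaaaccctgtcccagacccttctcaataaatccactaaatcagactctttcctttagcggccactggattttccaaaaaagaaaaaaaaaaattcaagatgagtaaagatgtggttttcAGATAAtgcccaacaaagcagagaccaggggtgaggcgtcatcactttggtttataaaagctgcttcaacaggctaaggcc
Il1rl1, first of 2 starts, chr1:40429320-40429569, plus strand: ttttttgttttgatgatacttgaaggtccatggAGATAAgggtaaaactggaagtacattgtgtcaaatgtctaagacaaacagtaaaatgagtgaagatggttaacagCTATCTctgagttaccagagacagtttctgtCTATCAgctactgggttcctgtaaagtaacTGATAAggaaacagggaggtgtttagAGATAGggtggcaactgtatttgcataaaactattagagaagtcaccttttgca
The Il5 window holds 1 match, AGATAG on the opposite strand, 72 bases before the start. The Il13 window holds AGATAA 81 bases before the start. The Il1rl1 window holds 5 matches, of which the nearest, AGATAG, lies 54 bases before the start. The window of the second Il1rl1 start holds 1 match and that of Gata3 holds none. Among 32851 promoter windows of the same length, 26.5% hold at least 1 of the 4 motifs. The STAT motif TTCNNNGAA and its form with 1 more N in the middle, of which 12.4% of all windows hold at least 1, had no match in these windows of the 4 genes. A match is a run of letters and not a measured binding site.

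Il5 differed most of the 5 genes. Lymphoid-like cells held 198 Il5 UMIs in the Chrna5-/- library and 23 in the WT library, or 102 and 10.8 CPM, a ratio of 9.42 (6.10 to 15.2). They held 96.1% of all Il5 UMIs in the Chrna5-/- library and 95.8% in the WT library. Of the 5 genes, Il5 and Il1rl1 were called higher in Chrna5-/- lymphoid-like cells and none was called lower, where 4.72% of 9487 measured genes were called higher and 5.96% lower. Over all kept cells the same 2 were called higher, where 2.62% of 16057 genes were called higher and 8.96% lower. The Il1rl1 call over all kept cells, at a ratio of 1.55, was lost with no cell filter (1.42), doublets kept (1.40), thinning (1.39) and a mean over cells (1.32).

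Il5 RNA was concentrated in few cells. An Il5 UMI was found in 25 Chrna5-/- lymphoid-like cells (3.75%) and 6 WT ones (0.795%), against 1 keratinocyte-like cell in each library. With each cell thinned to 1000 UMIs, the shares were 2.21% of 544 Chrna5-/- cells and 0.158% of 631 WT cells, leaving out 122 and 124 shallower cells. The highest cells held 38, 35 and 29 Il5 UMIs in the Chrna5-/- library and 9, 5 and 5 in the WT library. The top 3 cells thus held 51.5% of the Il5 UMIs of Chrna5-/- lymphoid-like cells and 82.6% of those of WT ones. Without the highest cell of each library the ratio was 12.5 (7.25 to 23.4). With subclusters weighted alike it was 3.46.

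**Figure D1:**
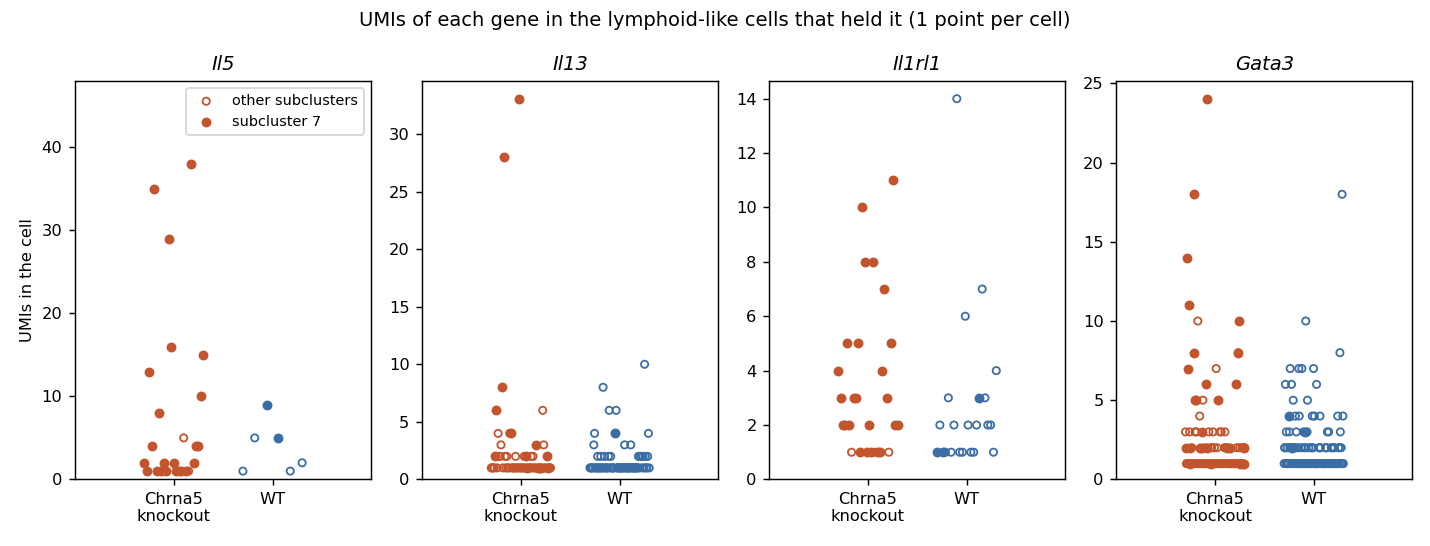
UMIs of Il5, Il13, Il1rl1 and Gata3 in each lymphoid-like cell that held the gene (y axis, UMIs in the cell; 1 point per cell, spread sideways for display), Chrna5 knockout left of WT. Filled points are cells of lymphoid subcluster 7 and open points cells of the other subclusters; the highest Il5 cell holds 38 UMIs in the knockout library and 9 in the WT library.

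Most Il5 came from a single group of cells. Clustering the lymphoid-like cells alone gave 11 subclusters, and subcluster 7, led by Il5, Hdc (histamine synthesis), Csf2 (the cytokine GM-CSF) and Il1rl1, took in 38 Chrna5-/- and 12 WT cells. It held 192 Il5 UMIs in 23 Chrna5-/- cells and 14 Il5 UMIs in 2 WT cells, or 1646 and 465 CPM, a ratio of 3.54 (2.06 to 6.61). That was 93.2% of all Il5 UMIs in the Chrna5-/- library and 58.3% in the WT library. All 4 lymphocyte genes were called higher in the Chrna5-/- cells of subcluster 7, where 10.5% of 990 measured genes were called higher and 7.88% lower. In its 12 WT cells Il5, Il13, Il1rl1 and Gata3 had 14, 4, 5 and 9 UMIs. Each thus counted as measured, at 20 UMIs, only through the Chrna5-/- cells, so these calls are a description. Subcluster 7 was 5.71% (4.07 to 7.75) of Chrna5-/- lymphoid-like cells and 1.59% (0.824 to 2.76) of WT ones, a ratio of 3.59 (1.84 to 7.55). In the other lymphoid-like cells Il5 had 6 UMIs in the Chrna5-/- library and 9 in the WT library, of which 8 lay in the alpha-beta T-like subcluster. Of those 8 UMIs, 7 were in cells with no T cell receptor complex UMI, and at a finer clustering all 8 fell, in 3 cells, into a subcluster nearest the group 2 innate lymphoid list.

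Subcluster 7 was given no cell type name. Its nearest marker list was that of group 2 innate lymphoid cells, with 5 of 11 genes found in at least 25% of cells. On that list Nmur1 and Ptgdr2, a neuromedin and a prostaglandin receptor of those cells, were nonetheless at 0 in both libraries. Trac, the constant part of the T cell receptor alpha chain, had 49 UMIs in 18 Chrna5-/- cells (47.4%) and 2 UMIs in 1 WT cell. Trac was found in 2.37% of the deeper Chrna5-/- keratinocyte-like cells. Cd4 had 10 UMIs in 7 Chrna5-/- cells and none in WT cells, while Cd8a, Trdc (the receptor's delta chain) and Foxp3 (the regulatory T cell factor) were at 0 in both. Among the 23 Chrna5-/- cells with Il5, 15 had at least 2 UMIs of Trac and the CD3 genes together and held 116 Il5 UMIs, and the other 8 held 76. Of the 2 WT cells with Il5, 1 had such UMIs and 5 Il5 UMIs, and the other held 9. Split instead by any T cell receptor complex UMI, Chrna5-/- cells with such a UMI held 145 Il5 UMIs and those with none held 47. In WT cells the same split gave 5 and 9. Il5 was therefore counted both in cells with and in cells without detected T cell receptor RNA. At this depth a missing UMI does not show a missing transcript.

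Granulocyte markers differed between the libraries within subcluster 7. Mast cell markers summed to 772 CPM in Chrna5-/- cells, with 5 of 7 found and Tpsb2 and Ms4a2 at 0, and to 5309 CPM in WT cells, with 6 of 7 found and Fcer1a at 0. Neutrophil markers summed to 660 CPM in Chrna5-/- cells, with 4 of 5 found and Cxcr2 at 0, and to 9257 CPM in WT cells, with all found. Cells with at least 10 UMIs of Cpa3 and Mcpt8 (mast cells and basophils) numbered 1 in the Chrna5-/- and 2 in the WT library, as did cells with at least 10 UMIs of S100a8 and S100a9 (neutrophils), and none held Il5. Without them, a choice made after seeing the data, 36 Chrna5-/- and 8 WT cells remained, with an Il5 ratio of 2.90 (1.69 to 5.41) and a ratio of shares of 5.10 (2.33 to 12.7). For the same cells the ratio was 4.82 (1.82 to 18.1) for Il13, 3.94 (1.63 to 12.4) for Il1rl1 and 3.55 (1.82 to 7.92) for Gata3.

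**Figure D2:**
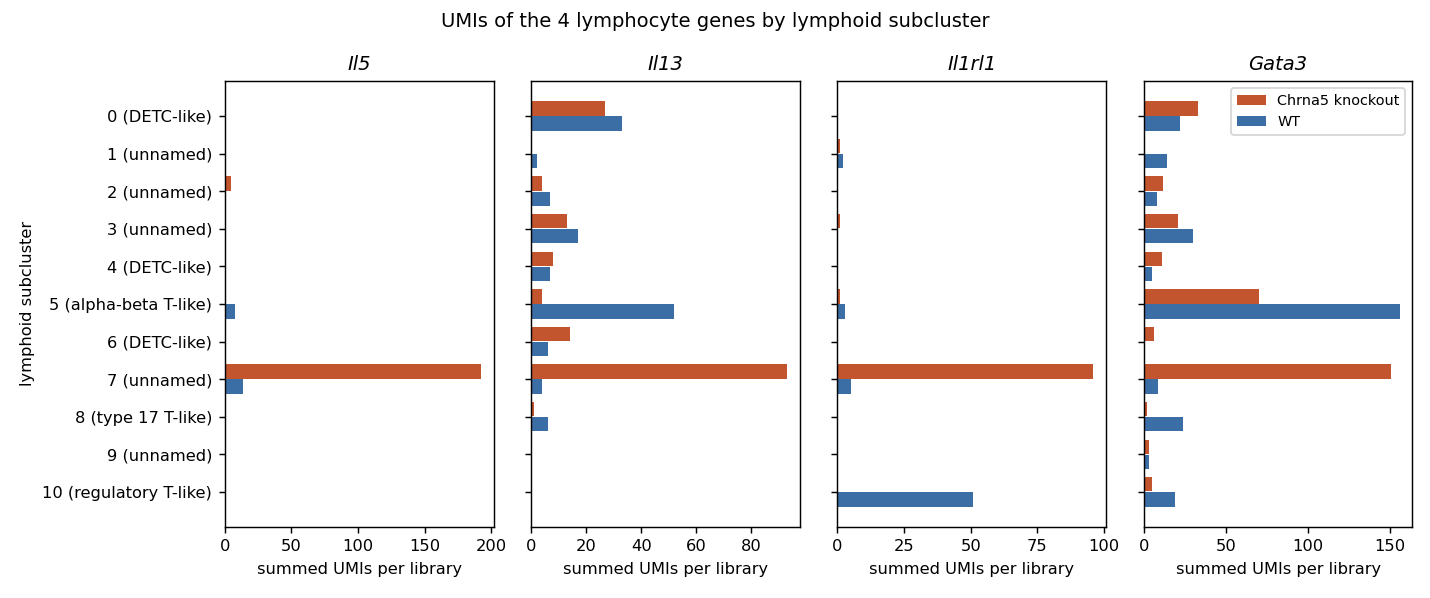
Summed UMIs per library (x axis) of Il5, Il13, Il1rl1 and Gata3 in each of the 11 lymphoid subclusters (y axis, with its marker-based name), Chrna5 knockout above WT. Subcluster 7 holds 192 knockout and 14 WT Il5 UMIs, and regulatory T-like subcluster 10 holds 51 of the 61 WT Il1rl1 UMIs.

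**Figure D3:**
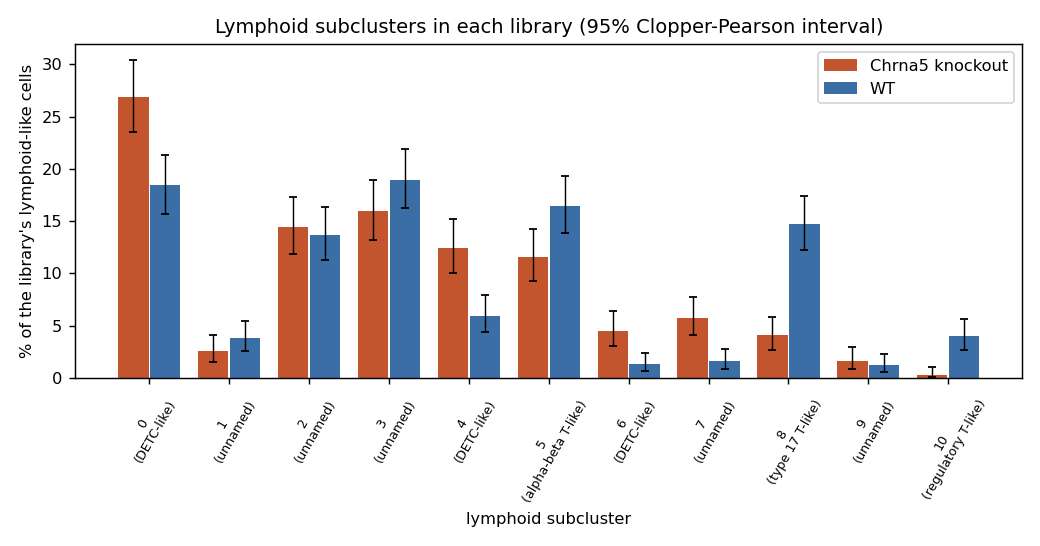
Share of each library's lymphoid-like cells (y axis, percent) in each lymphoid subcluster (x axis), Chrna5 knockout left of WT, with exact 95% intervals as black bars. Subcluster 7 holds 5.71% of knockout and 1.59% of WT cells, while regulatory T-like subcluster 10 holds 2 knockout and 30 WT cells.

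Il13 did not pass the call over lymphoid-like cells as a whole. It had 164 UMIs in Chrna5-/- cells and 134 in WT cells, or 84.3 and 62.9 CPM, a ratio of 1.34 (1.06 to 1.70). An Il13 UMI was found in 62 Chrna5-/- cells (9.31%) and 78 WT cells (10.3%), against 0.0567% of Chrna5-/- and 0.0790% of WT keratinocyte-like cells. The RNA was spread over more cells than Il5, since 40 of the Chrna5-/- and 55 of the WT positive cells held a single UMI. The highest cells held 33, 28 and 8 UMIs in the Chrna5-/- library and 10, 8 and 6 in the WT library. Without the highest cell of each library the ratio was 1.16.

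The cells that held Il13 differed between the libraries. Subcluster 7 held 93 Il13 UMIs in Chrna5-/- cells and 4 in WT cells, or 797 and 133 CPM, a ratio of 6.01 (2.27 to 22.5). Alpha-beta T-like cells, led by Ifng and the membrane protein genes Ms4a4b and Ms4a6b, went the other way, with 4 Il13 UMIs in 77 Chrna5-/- cells and 52 in 124 WT cells. Those are 19.8 and 155 CPM, a ratio of 0.127 (0.0335 to 0.346), called lower where 4.06% of 3475 measured genes were. Dendritic epidermal T cell (DETC)-like cells, the gamma-delta T cells of mouse epidermis, held 49 Il13 UMIs in the Chrna5-/- library and 46 in the WT library, or 52.3 and 86.6 CPM. Their ratio of 0.604 (0.396 to 0.924) was called lower, as were 3.83% of 6788 genes. That pool leaves out subclusters 2 and 3, which were also nearest the DETC marker list but were left unnamed. Subcluster 3 held 13 Il13 UMIs in 106 Chrna5-/- cells and 17 in 143 WT cells. Subcluster 2 held 4 in 96 Chrna5-/- cells and 7 in 103 WT cells. Over all lymphoid-like cells outside subcluster 7, Il13 had 71 UMIs in Chrna5-/- cells and 130 in WT cells, a ratio of 0.627 (0.463 to 0.844), called lower where 6.36% of 9382 genes were. At a finer clustering, 33 of the WT Il13 UMIs lay in a subcluster of 10 Chrna5-/- and 35 WT cells, drawn mostly from the alpha-beta T-like cells, in which the Chrna5-/- cells held 2. The alpha-beta T-like subcluster of that clustering held 15 Il13 UMIs in WT cells and none in Chrna5-/- cells. Of the 52 WT Il13 UMIs above, 21 were in cells with no T cell receptor complex UMI. That subcluster was led by Icos, Ikzf3, Gpr65 and Il13, was nearest the group 2 innate lymphoid list, and had T cell receptor complex UMIs in 4 Chrna5-/- and 13 WT cells.

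Il1rl1, the IL-33 receptor gene, was called higher in Chrna5-/- lymphoid-like cells. It had 99 UMIs in 28 Chrna5-/- cells and 61 UMIs in 22 WT cells, or 50.9 and 28.7 CPM, a ratio of 1.78 (1.28 to 2.49). That call was lost when cells were thinned to 1000 UMIs (1.45, 0.857 to 2.47), as a mean over cells (1.41) and with lymphoid-like cells chosen by a marker gate (1.24, 0.814 to 1.90), and the direction turned with subclusters weighted alike (0.907). The counts do not separate the soluble from the membrane form of ST2. Different cells carried it in the 2 libraries. Subcluster 7 held 96 Il1rl1 UMIs in Chrna5-/- cells and 5 in WT cells, or 823 and 166 CPM, a ratio of 4.96 (2.05 to 15.6). Regulatory T-like cells, led by Foxp3, Ctla4, Il1rl1 and Cd6, held 51 Il1rl1 UMIs in 16 of 30 WT cells, while the Chrna5-/- library had 2 such cells, with no Il1rl1 UMI. With so few Chrna5-/- cells, a level there could not be compared. Outside subcluster 7 the ratio was 0.0615 (0.0123 to 0.189), from 3 UMIs in Chrna5-/- cells and 56 in WT cells. Without the regulatory T-like cells as well, Il1rl1 had 3 UMIs in Chrna5-/- cells and 5 in WT cells.

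Gata3, the type 2 transcription factor, did not pass the call in lymphoid-like cells. It had 315 UMIs in 130 Chrna5-/- cells and 290 UMIs in 138 WT cells, or 162 and 136 CPM, a ratio of 1.19 (1.01 to 1.40). In subcluster 7 it had 151 UMIs in Chrna5-/- cells and 9 in WT cells, or 1295 and 299 CPM, a ratio of 4.34 (2.22 to 9.67). In the other lymphoid-like cells it had 164 UMIs in Chrna5-/- cells and 281 in WT cells, or 89.7 and 134 CPM, a ratio of 0.670 (0.549 to 0.815), which falls short of a 1.5-fold difference. Alpha-beta T-like cells held 70 Gata3 UMIs in the Chrna5-/- library and 156 in the WT library, 347 and 466 CPM.

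The 4 genes were often found in the same Chrna5-/- cells. Of the 25 Chrna5-/- lymphoid-like cells with Il5, 20 had Gata3, 17 had Il1rl1 and 11 had Il13. Of the 6 WT cells with Il5, 4 had Gata3, 1 had Il1rl1 and 1 had Il13. Among Chrna5-/- cells without Il5, 17.2% had Gata3, 1.72% had Il1rl1 and 7.96% had Il13, and among WT cells without Il5 the shares were 17.9%, 2.80% and 10.3%. Chrna5-/- cells with Il5 had a median of 3189 UMIs and those without it 2738.

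Other cytokines of the pathway list were higher over Chrna5-/- lymphoid-like cells as a whole. Of 11 listed type 2 cytokines, 7 were measured in lymphoid-like cells, Il5 and Il13 among them. In Chrna5-/- cells 5 of the 7, Il5 included, were called higher and none lower, against 4.72% and 5.96% of all measured genes. The median log2 ratio of the 7, with Il5 and Il13 in it, was 0.80 against 0.01 over all measured genes. Areg, the growth factor amphiregulin, had 6047 UMIs in Chrna5-/- cells and 3894 in WT cells, a ratio of 1.70. Csf2 had 231 and 144 UMIs in Chrna5-/- and WT cells, a ratio of 1.76, and Il2, the T cell growth factor, had 97 and 61, a ratio of 1.74. Il6 had 22 UMIs in Chrna5-/- cells and 8 in WT cells, a ratio of 3.01. Il4, the cytokine beside Il13, had 15 UMIs in Chrna5-/- cells and 13 in WT cells and was not called. Within subcluster 7 Csf2 went against Il5, with 182 UMIs in 17 Chrna5-/- cells and 97 UMIs in 6 WT cells, a ratio of 0.485 (0.377 to 0.627). Most Areg and Il2 lay outside subcluster 7, where Areg had 5721 UMIs in Chrna5-/- and 3872 in WT cells (ratio 1.70). Il2 had 80 and 61 there (1.51), and both were called higher, as were 5.13% of 9382 genes. Csf2 had 49 and 47 there (1.20) and was not called.

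Receptors, transcription factors and surface genes of the pathway were called in both directions or lower, against the same 4.72% of all measured genes higher and 5.96% lower. Of 15 measured receptors, 1 was called higher (Il1rl1) and 3 lower in Chrna5-/- lymphoid-like cells. The lower ones were Il7r, the IL-7 receptor chain that the TSLP receptor also uses, with 237 UMIs in Chrna5-/- cells and 406 in WT cells (ratio 0.639), Il18rap (0.518) and Csf2ra (0.469). Crlf2, the other chain of the TSLP receptor, had 181 UMIs in Chrna5-/- cells and 186 in WT cells, a ratio of 1.07. Of 17 measured transcription factors none was called higher and 4 were called lower, namely Zbtb16 (ratio 0.197), Maf (0.455), Irf4 (0.476) and Batf (0.616). Of 13 surface and effector genes, Arg1 (3.28) and Klrg1 (2.03) were called higher and Icos (0.333), Cysltr1 (0.307) and Tnfrsf4 (0.303) lower. Klrg1 marks both group 2 innate lymphoid cells and effector T cells, and Icos and Tnfrsf4 are costimulatory receptors of activated T cells. These are levels of the whole pool, in which type 17 T-like cells, led by Il17a, were 4.05% of Chrna5-/- and 14.7% of WT cells. The part of that shift in these calls was not tested. At the finer clustering type 17 T-like cells held the most Il7r UMIs, at 839 CPM in Chrna5-/- and 534 CPM in WT cells. A DETC-like subcluster of 20 Chrna5-/- and 21 WT cells went the other way, at 171 and 218 CPM.

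Genes that respond to IL-4 and IL-13 were measured too. In lymphoid-like cells 1 of 8 was called higher and 3 lower, against 4.72% and 5.96% of all measured genes. Retnla, a classic marker of alternatively activated macrophages, had 215 UMIs in 7 Chrna5-/- cells and 23 in 3 WT cells, and 2 Chrna5-/- cells with 97 and 80 UMIs held most of it. Mgl2, a lectin of dendritic cells and macrophages, had 8 UMIs in Chrna5-/- cells and 110 in WT cells, a ratio of 0.0796. Subcluster 1, led by the myeloid genes Cd209a, Wfdc17, Mgl2 and Mrc1, had 17 Chrna5-/- and 29 WT cells. Langerhans and dendritic cell markers summed to 234 CPM in Chrna5-/- lymphoid-like cells, with 8 of 9 found and Flt3 at 0, and to 1968 CPM in WT ones, with all found. In keratinocyte-like cells 14 genes of the IL-4 and IL-13 list were measured. Socs3 and Retnla were called higher in Chrna5-/- cells, where 2.64% of all measured genes were. The 6 called lower were Il19, Tgm2, Il13ra2, Car2, Ccl22 and Ccl8, where 8.01% of genes were.

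**Figure D4:**
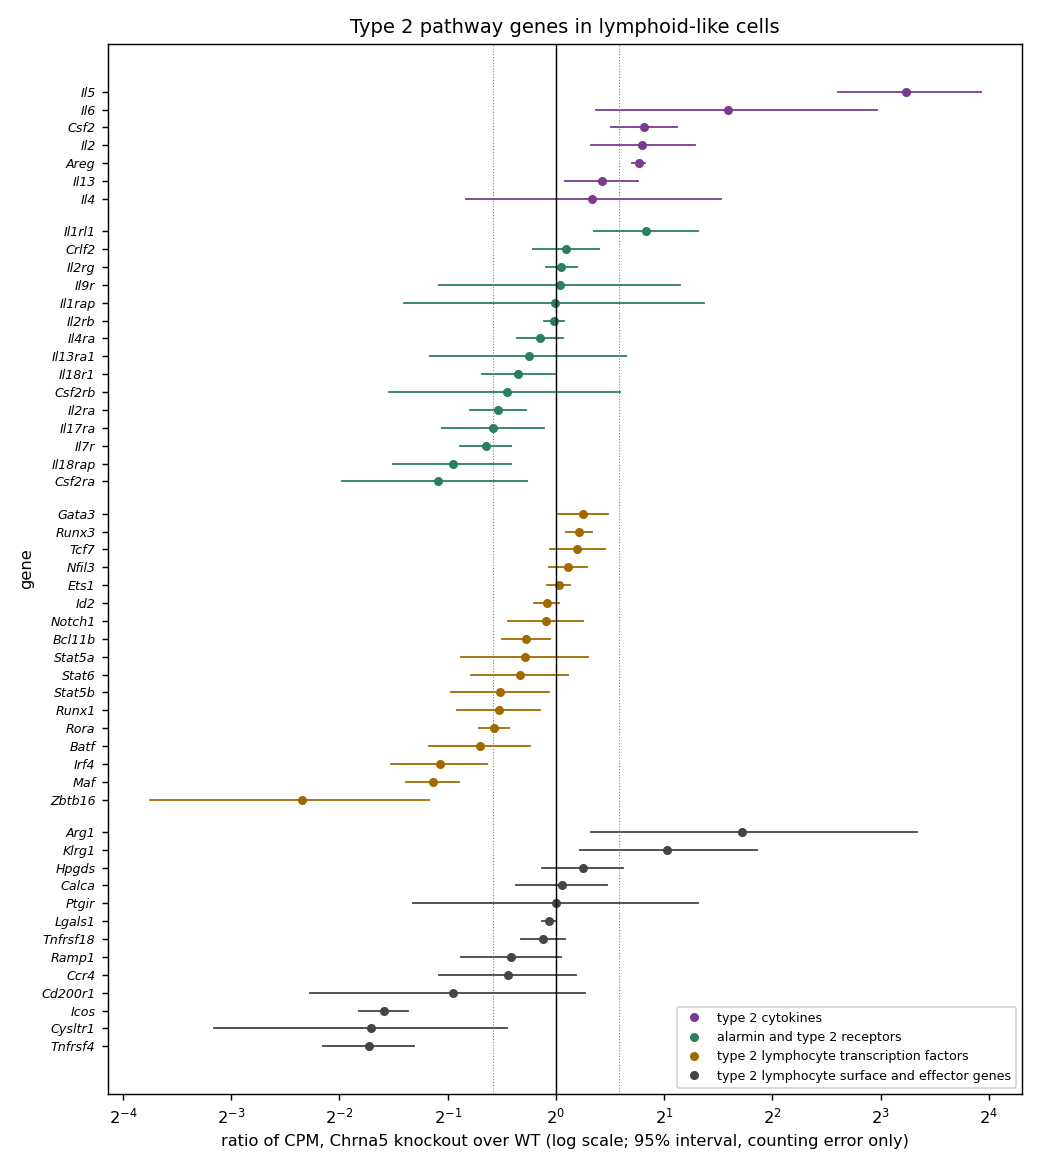
Ratio of CPM in lymphoid-like cells, Chrna5 knockout over WT (x axis, log scale), for each measured gene of 4 type 2 pathway lists (y axis), with exact 95% intervals as lines and dotted lines at a 1.5-fold difference either way. Il5 lies farthest right among the cytokines at 9.42, and Il1rl1 is the receptor past the dotted line on the right at 1.78.

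Genes beside the 5 on their chromosomes were read for shared or misassigned counts. Rad50, the DNA repair gene between Il13 and Il5, had 128 UMIs in Chrna5-/- lymphoid-like cells and 85 in WT ones, a ratio of 1.65 (1.24 to 2.20) that was called higher. Irf1, the interferon-regulated factor gene beyond Il5, had 134 and 211 UMIs in Chrna5-/- and WT cells, a ratio of 0.695. Il18r1, the IL-18 receptor gene just after Il1rl1, had 128 and 178, a ratio of 0.787. Gm12214, antisense to Il5, had no UMI in lymphoid-like cells, and the genes overlapping Gata3 had at most 3 there. Neither Il18r1 nor Irf1 passed the call.

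Tslp, the alarmin gene at chr18:32815383-32819797 (GRCm38) on the plus strand, lay almost wholly in keratinocyte-like cells, which held 98.2% of its UMIs in the Chrna5-/- library and 99.0% in the WT library. Over all these cells Tslp did not pass the call, with 6030 Tslp UMIs in Chrna5-/- cells and 6322 in WT cells, or 55.9 and 54.1 CPM, a ratio of 1.03 (0.998 to 1.07). A Tslp UMI was found in 21.7% of Chrna5-/- and 21.0% of WT keratinocyte-like cells, against 1.35% of Chrna5-/- and 1.19% of WT lymphoid-like cells, which are shallower. Strong cells were few, with at least 5 UMIs in 226 Chrna5-/- and 228 WT cells, and the highest cell held 154 UMIs in the Chrna5-/- library and 167 in the WT library. Of the 3 members measured in keratinocyte-like cells none was called, where 2.64% of 14653 genes were called higher and 8.01% lower.

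Within single clusters Tslp was more often higher in Chrna5-/- cells. It was measured in 11 of the 13 clusters, called higher in 4 and lower in none, while 2.38% to 8.97% of all genes measured in a cluster were called higher and 2.64% to 5.05% lower. In cluster 1, led by Procr, Nppb, F3 and Has3, Tslp was at 159 CPM in 244 Chrna5-/- cells and 88.5 CPM in 830 WT cells, a ratio of 1.80 (1.63 to 1.98), where 3.46% of genes were called higher. In cluster 8, of basal-like cells, it was at 49.2 and 28.3 CPM in Chrna5-/- and WT cells, a ratio of 1.74 (1.503 to 2.01), where 2.62% were. In cluster 5, led by histone genes of dividing cells, it was at 58.6 CPM in Chrna5-/- cells and 36.6 CPM in WT cells, a ratio of 1.60 (1.44 to 1.78), where 2.54% were. The Chrna5-/- cell with 154 Tslp UMIs is in cluster 5, and a Tslp UMI was found in 24.0% of Chrna5-/- and 27.7% of WT cells there, so the share of cells ran against the level. In cluster 10, of suprabasal-like cells, it was at 42.1 and 27.1 CPM in Chrna5-/- and WT cells, a ratio of 1.56 (1.27 to 1.92), where 2.38% were. There 1 Chrna5-/- cell held 69 of 402 Tslp UMIs, and a Tslp UMI was found in 142 of 734 Chrna5-/- and 64 of 349 WT cells. As means over cells, cluster 1 was at 177 CPM in Chrna5-/- and 89.5 CPM in WT cells, and cluster 8 at 47.2 and 40.2. By that mean cluster 5 was at 53.4 and 35.2 CPM, and cluster 10 at 43.5 and 22.4. Cluster 17, led by the mitotic gene Cenpf, had the lowest ratio among the measured clusters, with 58.6 CPM in Chrna5-/- cells and 78.8 CPM in WT cells, or 0.744 (0.675 to 0.821), short of a 1.5-fold difference. In that cluster 1 WT cell held 167 of the 855 WT Tslp UMIs, and the means over cells were 74.1 CPM in Chrna5-/- and 78.7 CPM in WT cells.

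The highest Tslp levels were in clusters 9 and 1 of both libraries. Cluster 9, led by Tnip3, Ch25h, H2-M2 and Slc6a4, was at 181 CPM in Chrna5-/- cells and 133 CPM in WT cells, a ratio of 1.36 (1.26 to 1.46). The intervals of clusters 9 and 1 overlapped in the Chrna5-/- library and not in the WT library. Both clusters were a smaller part of the Chrna5-/- library. Cluster 9 was 7.17% of Chrna5-/- and 17.5% of WT keratinocyte-like cells, and cluster 1 was 3.46% and 10.9% of them. Cluster 9 held 19.0% of Tslp UMIs in Chrna5-/- and 33.5% in WT cells, and cluster 1 held 10.2% and 20.4%. With the cluster levels of Chrna5-/- cells weighted by the UMIs of each cluster in the WT library, Tslp would be at 72.9 CPM, a ratio of 1.35 to the WT level. With WT levels weighted by the UMIs of each cluster in the Chrna5-/- library, Tslp would be at 44.5 CPM. The ratio of the Chrna5-/- level to that value is 1.26. Beside the near equal totals, the Tslp ratio was above 1 in 9 of 13 clusters, of which 4 passed the call. The Chrna5-/- library had fewer cells in the 2 clusters of highest level. Tslp lay at 0.885 CPM in Chrna5-/- and 2.32 CPM in WT cells of cluster 18, led by the hair follicle stem cell gene Lgr5.

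**Figure D5:**
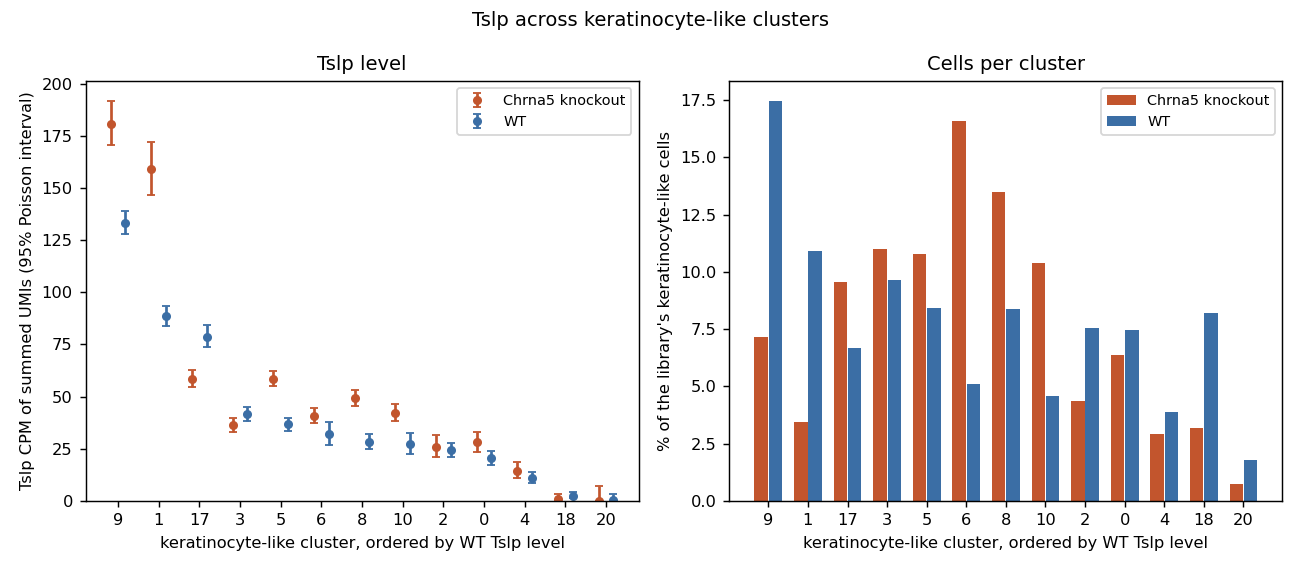
Left, Tslp level (y axis, CPM of summed UMIs with 95% Poisson intervals) in each of the 13 keratinocyte-like clusters (x axis, ordered by WT level), Chrna5 knockout left of WT; right, the share of each library's keratinocyte-like cells in the same clusters. Tslp is at 181 CPM in knockout and 133 CPM in WT cells of cluster 9, which holds 7.17% of knockout and 17.5% of WT cells.

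Gata3 was also abundant in keratinocyte-like cells, at 178 CPM in Chrna5-/- cells and 211 CPM in WT cells, a ratio of 0.844 (0.828 to 0.860). A Gata3 UMI was found in 78.3% of Chrna5-/- and 79.3% of WT cells. It was called in none of the 13 clusters, and its ratio was above 1 in 2 of them. Cluster 9 was at 229 CPM in Chrna5-/- cells and 313 CPM in WT cells, the highest in the WT library, while in the Chrna5-/- library its interval overlapped that of cluster 20 at 226 CPM.

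Genes that act on Tslp, and the other alarmins, were read over all keratinocyte-like cells, where Tslp itself was not called. Of 26 measured genes listed as Tslp regulators none was called higher and 3 were called lower in Chrna5-/- keratinocyte-like cells, with a median log2 ratio of -0.07 against -0.04 over all genes. That is near the background, in which 2.64% of all genes measured in these cells were called higher and 8.01% lower. Cyp24a1, which breaks down active vitamin D, had 14 UMIs in Chrna5-/- cells and 136 in WT cells, a ratio of 0.112. Klk7, an epidermal protease, had 4720 and 12378 UMIs in Chrna5-/- and WT cells (ratio 0.413), and the cation channel gene Trpv4 had 151 and 333 (ratio 0.492). Klk7 is also a leading gene of cluster 2, which was 4.36% of Chrna5-/- and 7.53% of WT keratinocyte-like cells. The part of that shift in the Klk7 ratio was not tested. Among 5 measured alarmins 2 were called lower, against the same 8.01% of all genes, namely Il18 with 128 UMIs in Chrna5-/- cells and 292 in WT cells (ratio 0.475), and Il1a with 333 and 565 (ratio 0.639).

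Genes whose levels ran most like each member's were sought across 47 pools of a cluster and a library, as a description, since pools share libraries and clustering. They are not given for Il5, Il13 and Il1rl1, because subcluster 7, below 50 cells in each library, was not a pool of its own. For Tslp they were Il15ra (0.893), Ifi202b (0.887) and Slc16a9 (0.879), and for Gata3 Pkp3 (0.831), Wdr89 (0.810) and Sytl1 (0.802).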

How the data were processed

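Single-cell RNA libraries (10x Genomics) of 1 Chrna5-/- and 1 WT sample were used. The values are counts of UMIs per gene and cell, made with Cell Ranger, given as 3.0.2 per the submitters' processing notes and as 3.1.0 per the file headers, on mm10. The deposited counts were used as given, and no column lacked a sample. A barcode needed 500 UMIs and 300 detected genes, with no more than 20% of UMIs mitochondrial. Doublets were removed at a Scrublet score of 0.25, a threshold chosen after seeing the data, which took 4.72% of Chrna5-/- and 4.79% of WT cells, since Scrublet's own threshold marked 0.0295% of WT cells. Cells were clustered in scanpy 1.11.5 (2000 variable genes without the 5 members, 30 principal components, 15 neighbours, Leiden resolution 1) and named from marker lists. The rule that cells with T cell receptor RNA take no innate lymphoid or natural killer name was added after seeing the data.

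UMIs were summed per cluster and library. With 1 library per genotype no test across samples, p-value or standard error was computed. All intervals are exact at 95%, from the conditional binomial for a ratio, the Poisson for a summed count and Clopper-Pearson for a share. CPM multiplies a gene's part of a pool's UMIs by 1000000. The ratio script was tested on simulated data. TMM and median-of-ratios factors came from edgeR 4.0.16. Motifs were searched in the 250 bases before each RefSeq start, although the plan named 300 bases. The 5 members and the gene lists were chosen with earlier results of these data known. The genes named are the members, list genes past the call or at the ends of a list, the 3 most alike in pattern (for Tslp and Gata3), the 4 leading genes of a cluster, and chromosomal neighbours; T cell receptor, granulocyte and Crlf2 and Il4 values were added after seeing the data. Alternatives changed the cell filter, doublets, clustering, depth, scaling, weighting, and the definition of lymphoid-like cells.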

Additional observations from a re-analysis of the deposited data

Results flagged for a closer look

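In 3 genes the ratio of Chrna5-/- to WT levels lay on opposite sides of 1 in different lymphoid cells. Il13 had a ratio of 6.01 in subcluster 7 and 0.127 in the alpha-beta T-like subcluster, where 21 of the 52 WT UMIs lay in cells with no T cell receptor complex UMI and a finer clustering put 33 WT Il13 UMIs in a subcluster nearest the group 2 innate lymphoid list. Il1rl1 had a ratio of 4.96 in subcluster 7 and 0.0615 in the other lymphoid-like cells, where regulatory T-like cells, 2 in the Chrna5-/- and 30 in the WT library, held 51 of the 56 WT UMIs. Without them Il1rl1 had 3 UMIs in Chrna5-/- cells and 5 in WT cells. Gata3 had a ratio of 4.34 in subcluster 7 and 0.670 in the other lymphoid-like cells. Without its cells with at least 10 UMIs of Cpa3 and Mcpt8, or of S100a8 and S100a9, the subcluster 7 ratios were 4.82 for Il13, 3.94 for Il1rl1 and 3.55 for Gata3. Among keratinocyte-like clusters, Tslp had a ratio of 1.80 in cluster 1 and 0.744 in cluster 17. In cluster 17, 1 WT cell held 167 of the 855 WT Tslp UMIs. These differences between cell groups were not tested, since each genotype has 1 library.

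Signals outside the main comparisons were also found. Tslp in fibroblast-like cells had 62 UMIs in 47 of 283 Chrna5-/- cells and 26 UMIs in 23 of 277 WT cells, or 42.4 and 16.3 CPM, a ratio of 2.60 (1.62 to 4.29). These cells joined cluster 7, with 21 Chrna5-/- and 118 WT cells, and cluster 13, with 262 and 159. The part of this shift between clusters in the ratio was not tested. Il5 had 7 UMIs in dermal papilla-like cells of the Chrna5-/- library and none in those of the WT library. All 7 were in 1 cell, which also held 7 Il13 UMIs, 2 UMIs of the T cell receptor complex and 1 of Ptprc, the pan-leukocyte gene, among 10283 UMIs.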

How the results depend on the processing

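No paired analysis was possible because each genotype has 1 library. Values here are log2 ratios of Chrna5-/- over WT unless named otherwise. Il5 in lymphoid-like cells stayed above 0 under all 13 alternatives (1.79 to 3.74), its lowest value of 1.79 coming with subclusters weighted alike. Il1rl1 there turned to -0.14 with subclusters weighted alike and was 0.31 with cells chosen by a marker gate, and its call as higher was lost under both, with cells averaged (0.49) and after thinning (0.54). Il13 there was 0.048 after thinning to 1000 UMIs per cell, 0.0012 as a mean over cells and -0.13 with the gate. Gata3 there was 0.00065 with doublets kept, 0.85 with subclusters weighted alike and -0.15 with the gate. Tslp in keratinocyte-like clusters was 0.17 after thinning, 0.41 with clusters weighted alike and 0.43 with WT cluster weights, the last chosen after seeing the data. Over all kept cells, Il13 was -0.065 after thinning and -0.038 with cells averaged, Tslp was 0.25 after thinning and 0.15 with median-of-ratios scaling, and Gata3 was -0.15 with TMM (-0.153) and with median-of-ratios scaling (-0.150). In the main clustering DETC-like cells were 43.8% of Chrna5-/- and 25.7% of WT lymphoid-like cells, a ratio, not in log2, of 1.71. The log2 ratio of these shares was smaller at resolution 0.6 (0.31) and at 1.5 (0.23). Cells nearest the group 2 innate lymphoid list had a main ratio of shares, not in log2, of 3.59. Their log2 ratio was smaller at 1.5 (0.32), from 47 Chrna5-/- and 43 WT cells. At 0.6 no subcluster was nearest that list or regulatory T-like. After thinning, 7 list genes were lower in lymphoid-like cells, 7 in keratinocyte-like clusters and 12 over all kept cells, and 3 type 2 cytokines were higher in lymphoid-like cells. Thinning leaves fewer UMIs to call genes with, and the cause of the other shifts was not tested. Il5, Il13 and Il1rl1 rest on 14 UMIs or fewer in the WT cells of subcluster 7, which sets the width of their intervals.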
